A study of Mus musculus with 72 samples.

Results

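Dapk1 and Cdkn2b were followed in whole blood of mice given lead (Pb) in drinking water. They are 2 of the 18194 genes with a probe set of their own on the array. They were selected on the change in the low-dose difference from controls between the later and the earlier collection, which was among the clearest of all genes in earlier results from these arrays. All probe sets annotated to one of the 2 symbols alone were taken, 3 of 34958 such probe sets. Cdkn2b has 1 probe set. Dapk1 has 2, of which the brighter on average was used and the dimmer served as a check. Because low-dose and control arrays chose the genes, the values of the 2 genes on those arrays are given as a description. The genes were tested on differences and correlations among high-dose arrays. The spread in the tests of differences came from all arrays, including those that chose the genes. Those tests are thus not fully independent of the choice. Both genes passed the filter on low signal, which kept 12589 genes.

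The mice were female Balb/c, 9 weeks old at the start. Lead acetate trihydrate was given for 2 weeks at 0 µg/mL to the controls, at 5 µg/mL as the low dose or at 50 µg/mL as the high dose, after which all mice drank water without Pb for 2 more weeks. Peripheral blood came from a submandibular bleed, once when the exposure ended and once when the recovery ended. The recovery collection has 7 control, 15 low-dose and 13 high-dose arrays, and the exposure collection has 7, 15 and 15 in the same order of dose. Exposed mice were bled at both collections, while 7 of the control mice were bled at the first. The labels do not say whether the 7 recovery controls are the same animals, and they tie no title number to a mouse, so the collections were treated as independent and a p-value reflects only how far these blood samples spread. All levels below are deposited log2 values, and differences are log2 differences ± SE from limma, fitted to the 6 group means over all 72 arrays.

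Dapk1 encodes death-associated protein kinase 1, a serine/threonine kinase switched on by calcium and calmodulin and bound to the cytoskeleton. It was found as a mediator of cell death induced by interferon-gamma, and it also acts in autophagy and membrane blebbing. Cdkn2b encodes p15INK4b, an inhibitor that binds the cyclin D kinases Cdk4 and Cdk6 and holds cells in G1, and transforming growth factor beta (TGF-beta) is its best known inducer. Both genes are often silenced by promoter methylation in blood cancers. The 2 products act in different pathways, one in cell death and the other in the cell cycle.

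Dapk1 lies on chromosome 13 (60601723 to 60763191, GRCm38.p6) and Cdkn2b on chromosome 4 (89306289 to 89311032), close to its paralog Cdkn2a (89274473 to 89294619). The 250 bases before an annotated RefSeq start of each gene are printed because the low-dose differences from controls changed the same way between collections. Both genes were chosen on that change. The Dapk1 window is chr13:60601961-60602210 on the plus strand and lies inside the annotated gene, so an earlier start also exists. The Cdkn2b window is chr4:89311033-89311282, read on the minus strand. Capitals mark GC boxes (GGGCGG) in Dapk1 and a cyclic AMP response element (TGACGTCA) in Cdkn2b.
Dapk1: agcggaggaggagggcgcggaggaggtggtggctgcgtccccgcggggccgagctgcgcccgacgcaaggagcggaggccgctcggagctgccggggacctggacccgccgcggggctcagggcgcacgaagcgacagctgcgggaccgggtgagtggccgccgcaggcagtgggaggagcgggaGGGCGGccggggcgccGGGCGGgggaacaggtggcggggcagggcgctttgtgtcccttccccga
Cdkn2b: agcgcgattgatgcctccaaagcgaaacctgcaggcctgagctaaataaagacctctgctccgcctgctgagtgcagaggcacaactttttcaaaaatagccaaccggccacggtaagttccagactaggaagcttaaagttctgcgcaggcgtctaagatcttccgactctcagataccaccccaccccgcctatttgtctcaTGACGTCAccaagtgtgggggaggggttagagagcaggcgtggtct

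The Dapk1 window had 33 CG dinucleotides and 78.4% G and C, and 96% of 32851 mouse promoter windows of this length had fewer CG. The Cdkn2b window had 12 CG and 53.6% G and C, and 66.5% of windows had fewer. The GC boxes of Dapk1 stood 65 and 49 bases before the start, and 32.7% of all windows held this motif. The cyclic AMP response element of Cdkn2b stood 46 bases before the start, and 1.55% of windows held one. On either strand, neither window held the gamma-activated site TTCNNNGAA (7.02% of windows), the SMAD box GTCTAGAC (0.167%), the E-box CACGTG (6.02%), CCAAT (33.8%) or AGATAA (9.99%). The 2 windows thus shared none of the 7 motifs searched, and a match or its absence says nothing on which factors act there.

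The arrays were those of blood: Pf4, a platelet chemokine, had a median level of 12.9, Alas2 of red cell precursors 13.8, S100a8 of neutrophils 12.6, Cd3e of T cells 10.7 and Cd79a of B cells 9.20. Krt14 of skin and Acta1 of muscle stood at 4.06 and 4.09, near the median of all deposited values, 4.14. Correlations between arrays over all probe sets lay between 0.958 and 0.995, no pair of arrays was identical, and array medians lay between 4.05 and 4.22. The difference between 3′ and 5′ probe sets of Gapdh, a measure of RNA quality, averaged 0.91, 0.93 and 0.84 after recovery and 0.54, 0.53 and 0.56 after exposure, in order of dose, and the same difference for Actb averaged 0.68, 0.67 and 0.65 after recovery and 0.37, 0.44 and 0.48 after exposure. Both were higher after recovery at each dose, and the Actb difference also increased with dose after exposure. Signal from 18S ribosomal RNA averaged 6.38, 6.33 and 6.43 after recovery and 7.00, 7.00 and 7.79 after exposure, in order of dose. The part of RNA quality in the results below was not tested beyond fits with the 3′ to 5′ differences as covariates. In whole blood, fewer cells of a type and less RNA per cell cannot be told apart.

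Dapk1 was measured above the median of all values on all 72 arrays, between 5.59 and 6.73. After recovery, control arrays had a lowest, median and highest Dapk1 level of 5.59, 5.88 and 6.13, low-dose arrays of 5.89, 6.17 and 6.51, and high-dose arrays of 5.92, 6.25 and 6.50. After exposure, control arrays had 6.37, 6.51 and 6.72, low-dose arrays 5.94, 6.21 and 6.48, and high-dose arrays 6.12, 6.54 and 6.73. By median the recovery controls were lowest and the high-dose exposure arrays highest, while by mean the exposure controls were highest. The low-dose median lay between the 2 control medians at both collections. The mean Dapk1 level after recovery was 5.90 ± 0.19 in controls (SD, n = 7), 6.18 ± 0.20 at the low dose (SD, n = 15) and 6.22 ± 0.18 at the high dose (SD, n = 13). The mean after exposure was 6.54 ± 0.13 in controls (SD, n = 7), 6.24 ± 0.14 at the low dose (SD, n = 15) and 6.47 ± 0.20 at the high dose (SD, n = 15).

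Cdkn2b gave a dim signal, between 3.84 and 5.18, and was above the median of all values on 70 arrays. After recovery, control arrays had a lowest, median and highest Cdkn2b level of 4.05, 4.24 and 4.47, low-dose arrays of 4.21, 4.47 and 4.87, and high-dose arrays of 4.43, 4.60 and 4.91. After exposure, control arrays had 4.51, 4.81 and 4.96, low-dose arrays 3.84, 4.49 and 4.80, and high-dose arrays 4.43, 4.75 and 5.18. The 2 control groups stood at the ends of the order by median and by mean, as they did by mean alone for Dapk1. The mean Cdkn2b level after recovery was 4.25 ± 0.14 in controls (SD, n = 7), 4.52 ± 0.20 at the low dose (SD, n = 15) and 4.62 ± 0.14 at the high dose (SD, n = 13). The mean after exposure was 4.80 ± 0.16 in controls (SD, n = 7), 4.48 ± 0.24 at the low dose (SD, n = 15) and 4.78 ± 0.19 at the high dose (SD, n = 15).

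**Figure D1:**
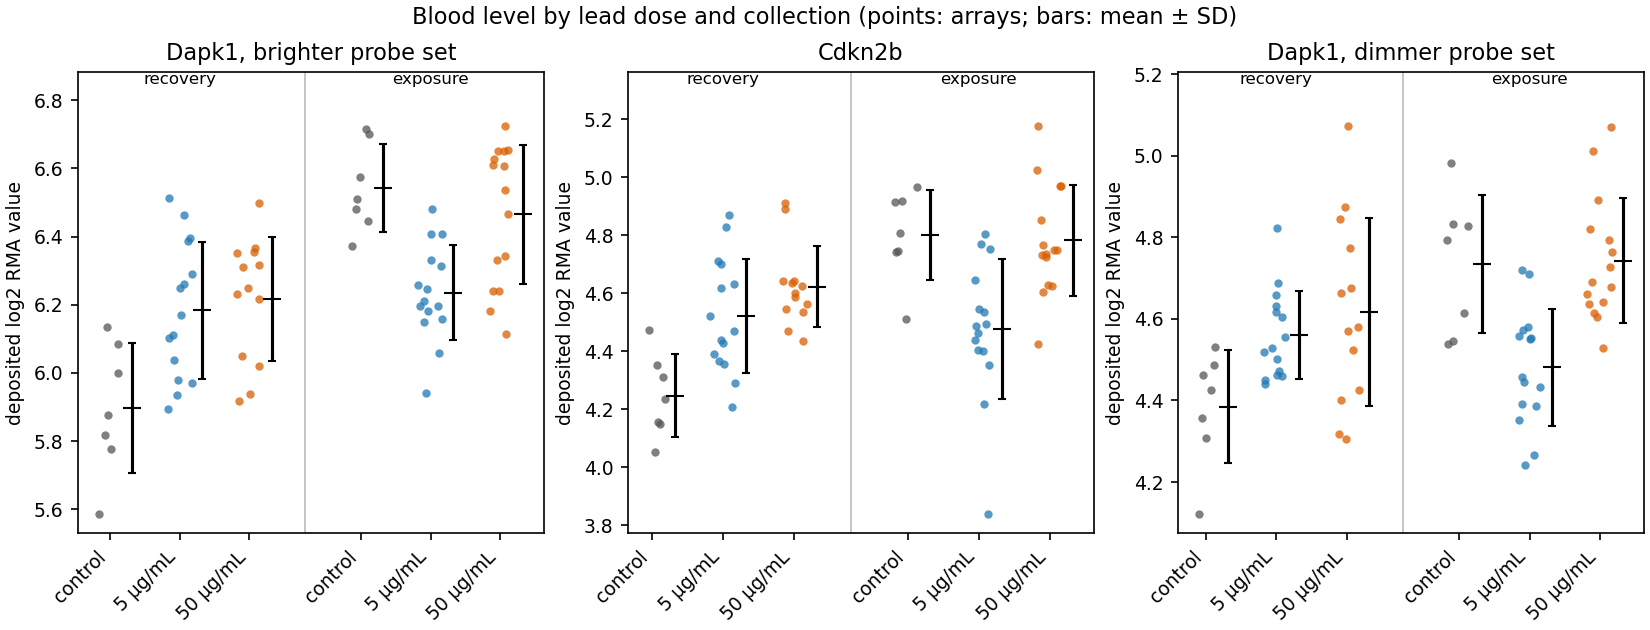
Deposited log2 value (y axis) of the Dapk1 probe set used, of Cdkn2b and of the dimmer Dapk1 probe set on each array (points), by dose, with recovery left and exposure right in each panel; bars are mean ± SD. In the first panel the recovery controls lie between 5.59 and 6.13 and the exposure controls between 6.37 and 6.72, while low-dose means are 6.18 and 6.24.

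From high to low, the Dapk1 group means ran exposure control, exposure high dose, exposure low dose, recovery high dose, recovery low dose and recovery control. Only 2 neighbours in that order were farther apart than the larger of their SDs: the high dose stood 0.23 above the low dose after exposure, and the recovery low dose 0.29 above the recovery control. The Cdkn2b means ran exposure control, exposure high dose, recovery high dose, recovery low dose, exposure low dose and recovery control, and no neighbours there differed by more than the larger SD. The ranges of every pair of neighbours overlapped, for both genes.

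The low-dose difference from controls had opposite signs at the 2 collections. After recovery Dapk1 was above controls by 0.29 ± 0.08, with 8 of 15 low-dose arrays above every control, and after exposure its difference was -0.31 ± 0.08, with 12 of 15 below every control. For Cdkn2b the difference was 0.27 ± 0.09 after recovery, with 7 of 15 arrays above every control, and -0.32 ± 0.09 after exposure, with 9 of 15 below. The low-dose difference after recovery minus that after exposure was 0.60 ± 0.12 for Dapk1 and 0.60 ± 0.12 for Cdkn2b. This is the contrast that chose the genes. Over all genes 3 (0.0238%) passed an adjusted p of 0.05 in it: the 2 genes described here, ranked 2 and 3 by p, and Slc12a2, a sodium, potassium and chloride cotransporter, with -0.90 ± 0.15. Nothing is read from that count for the 2 genes.

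The level of both genes differed between the collections mainly in the controls. In controls the level after recovery minus that after exposure was -0.65 ± 0.10 for Dapk1 and -0.55 ± 0.10 for Cdkn2b. All 7 recovery controls lay below all 7 exposure controls for both genes, which 1.92% of all tested genes showed in this direction and 6.21% in either. Between the control collections 2834 of 12589 tested genes passed as higher and 1710 as lower (limma). Control arrays took part in the contrast that chose the 2 genes, so nothing is read from these shares for them. Low-dose levels after recovery differed from those after exposure by -0.05 ± 0.07 for Dapk1 and 0.04 ± 0.07 for Cdkn2b, less than the SD of either group. The name of phase-dependent low-dose genes thus fits the difference from controls and not the low-dose level itself.

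The high-dose arrays, set against the same controls, lay above them after recovery and close to them after exposure. After recovery Dapk1 was above controls by 0.32 ± 0.08 and Cdkn2b by 0.37 ± 0.09, with 9 and 11 of 13 high-dose arrays above every control. After exposure the differences were -0.08 ± 0.08 for Dapk1 and -0.02 ± 0.09 for Cdkn2b. With the means of 6 blood cell marker lists as covariates the Dapk1 difference was 0.07 ± 0.08 after recovery and -0.14 ± 0.07 after exposure, and that of Cdkn2b 0.19 ± 0.09 and -0.14 ± 0.08. The high-dose difference after recovery minus that after exposure was 0.40 ± 0.12 for Dapk1 and 0.39 ± 0.12 for Cdkn2b. Both doses share their controls, so these values are not independent of the low-dose ones. The high dose minus the low dose, which uses no controls, was 0.03 ± 0.07 for Dapk1 and 0.10 ± 0.07 for Cdkn2b after recovery. After exposure it was 0.23 ± 0.07 and 0.31 ± 0.07, with 8 (Dapk1) and 5 (Cdkn2b) of the 15 high-dose arrays beyond the low-dose range. With the 6 marker means as covariates the difference after exposure was -0.02 ± 0.07 for Dapk1, with its sign turned, and 0.13 ± 0.08 for Cdkn2b.

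The dimmer Dapk1 probe set gave the same signs for the low-dose differences from controls, with smaller sizes. Its low-dose difference from controls was 0.18 ± 0.07 after recovery and -0.25 ± 0.07 after exposure, and the change between them was 0.43 ± 0.10. In controls, recovery minus exposure was -0.35 ± 0.09. At the low dose it was 0.08 ± 0.06, against -0.05 ± 0.07 for the brighter probe set, so the sign differed. The dimmer probe set had a mean over the arrays of 4.59, close to the median of all values.

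**Figure D2:**
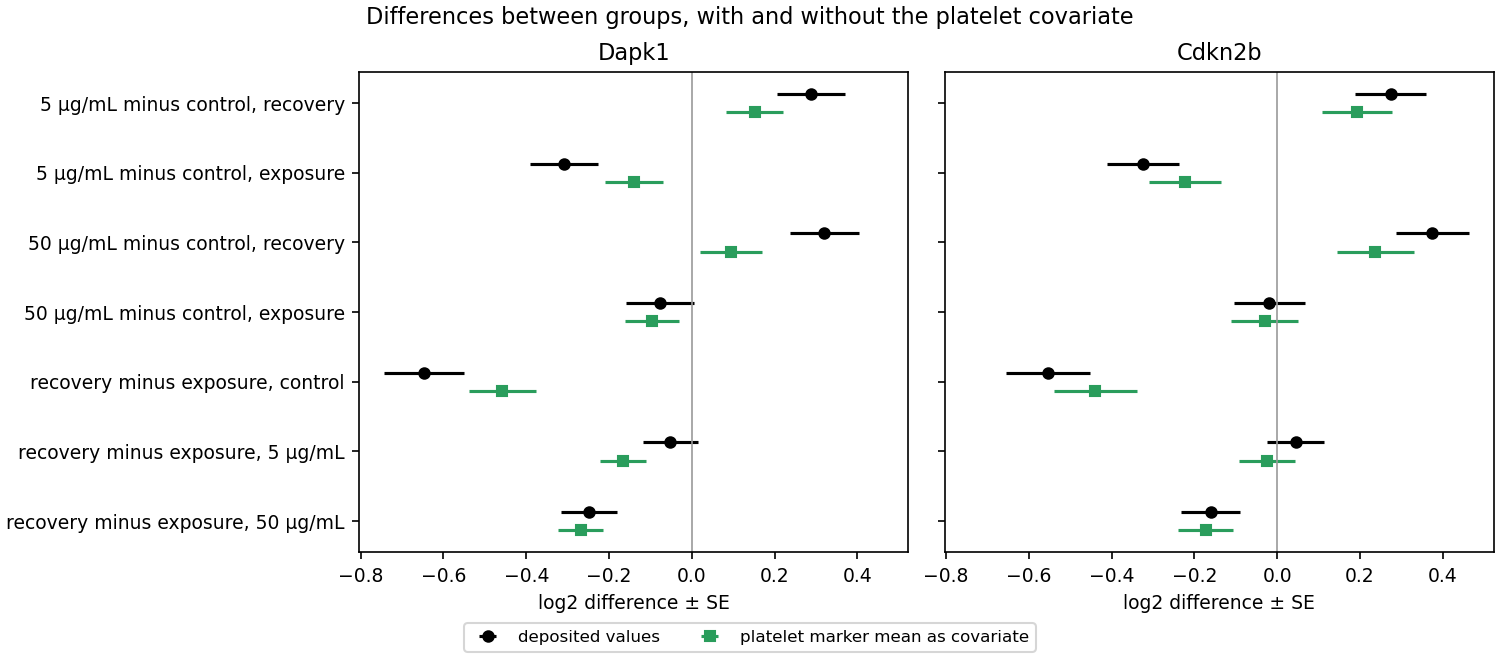
Log2 difference ± SE (x axis) for 7 comparisons (y axis) of Dapk1 and Cdkn2b, from the deposited values (black circles) and with the mean of 12 platelet markers as a covariate (green squares). The control row is farthest below 0, at -0.65 for Dapk1 and -0.55 for Cdkn2b, and the low-dose row lies near 0.

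The high-dose means took no part in the contrast that chose the genes, so the high-dose change between collections was tested. Its SE and p used the spread within all groups, including the low-dose and control arrays that chose the genes. In a fit of only the groups compared, Cdkn2b passed the threshold that it missed here. On the probe set used, the high-dose Dapk1 level after recovery differed from that after exposure by -0.25 ± 0.07 (limma, adjusted p = 0.00179 over all genes). The 95% interval was -0.38 to -0.11, and 4 of 13 recovery arrays lay below every exposure array. Cdkn2b differed by -0.16 ± 0.07 and did not pass the threshold (limma, adjusted p = 0.0546), with a 95% interval of -0.30 to -0.02 and 0 of 13 arrays below every exposure array. In this comparison 49.2% of all tested genes passed, 29.4% as higher and 19.8% as lower, so 1 of 2 genes called is near the background. The Dapk1 call was lost with the dimmer probe set (-0.12 ± 0.06, adjusted p = 0.0857) and with the means of 6 blood cell marker lists as covariates (-0.14 ± 0.08, adjusted p = 0.153). Cdkn2b passed when any of 6 of the 28 arrays was left out (high-dose exposure replicates 2, 4, 8 or 12 and recovery replicates 4 or 9), with adjusted p between 0.0248 and 0.0446. Controls, given no Pb, had -0.65 ± 0.10 (Dapk1) and -0.55 ± 0.10 (Cdkn2b) between the same collections. The collections also differ by 2 weeks of age, by an earlier bleed of the exposed mice and in the 3′ to 5′ differences. Recovery from Pb cannot be told apart from these in the high-dose arrays.

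Blood cell markers moved between the same high-dose collections. All 13 tested B cell markers were higher after recovery and past the test, with a median difference of 1.03, 9 of 12 monocyte markers rose and 8 of 10 erythroid markers fell. Of 12 platelet markers 3 rose and 1 fell, and of all tested genes 29.4% passed as higher and 19.8% as lower. With the 6 marker means as covariates, the Cdkn2b difference was -0.05 ± 0.09. The share of each cell type in the difference was not tested.

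Within groups the 2 genes varied together, though not in every group. After each group's mean was subtracted, Dapk1 and Cdkn2b correlated over the 28 high-dose arrays, a subset chosen after the data were seen, with r = 0.47 and rho = 0.48 (permutation within groups, two-sided, p = 0.0149 and 0.0129). Without the 2 arrays farthest from the median of Dapk1, r was 0.36. It was 0.05 in the recovery arrays and 0.71 in the exposure arrays, so the relation did not hold within the high-dose recovery group. In a permutation test of each group, adjusted over the 6 groups of the study, r had an adjusted p of 0.974 in the high-dose recovery arrays and 0.0164 in the high-dose exposure arrays. As a description over all 72 arrays, r was 0.39 and rho 0.42, and r was 0.64 in low-dose recovery and 0.01 in low-dose exposure arrays. Over all arrays r was 0.21 with the platelet marker mean as a covariate and 0.16 with the 6 marker means. The differences between groups were not tested.

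Platelet markers moved the same way as both genes at the low dose. All 12 tested platelet markers of 13 listed were above controls after recovery, with a median of 0.23, and all 12 were below controls after exposure, with a median of -0.27. None of them passed the test by itself in either comparison (limma), while after quantile normalization Thbs1 (-0.55, adjusted p = 0.0415) and Treml1 (-0.35, 0.0401) passed as lower after exposure. In the change of the low-dose difference between collections all 12 lay above 0 with a median of 0.53, and 0 passed, or 1, Treml1, after quantile normalization (0.58, adjusted p = 0.0377). Gp6, the platelet collagen receptor, had 0.54 and Treml1, a receptor of platelet granules, 0.57 (both adjusted p = 0.0738). Pf4, a defining platelet chemokine, lay between 12.5 and 13.1 on the 72 arrays.

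The mean of the 12 platelet markers, each centred over the arrays, was -0.22 ± 0.16 in controls, 0.00 ± 0.23 at the low dose and 0.15 ± 0.20 at the high dose after recovery (SD, n = 7, 15 and 13). After exposure it was 0.09 ± 0.15 in controls, -0.18 ± 0.16 at the low dose and 0.11 ± 0.17 at the high dose (SD, n = 7, 15 and 15). The order of doses was the same as for Dapk1 and Cdkn2b after recovery, and after exposure the low dose was lowest in all 3 measures. High-dose arrays after recovery were above controls for 12 of 12 platelet markers, of which 4 passed the test (2 after median centring), against 0.429% of all tested genes. In the same comparison all 10 erythroid markers also lay above controls, with a median of 0.24 and 1 past the test. All 13 B cell markers and all 8 eosinophil and basophil markers lay below, with medians of -0.27 and -0.20 and none past the test.

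**Figure D3:**
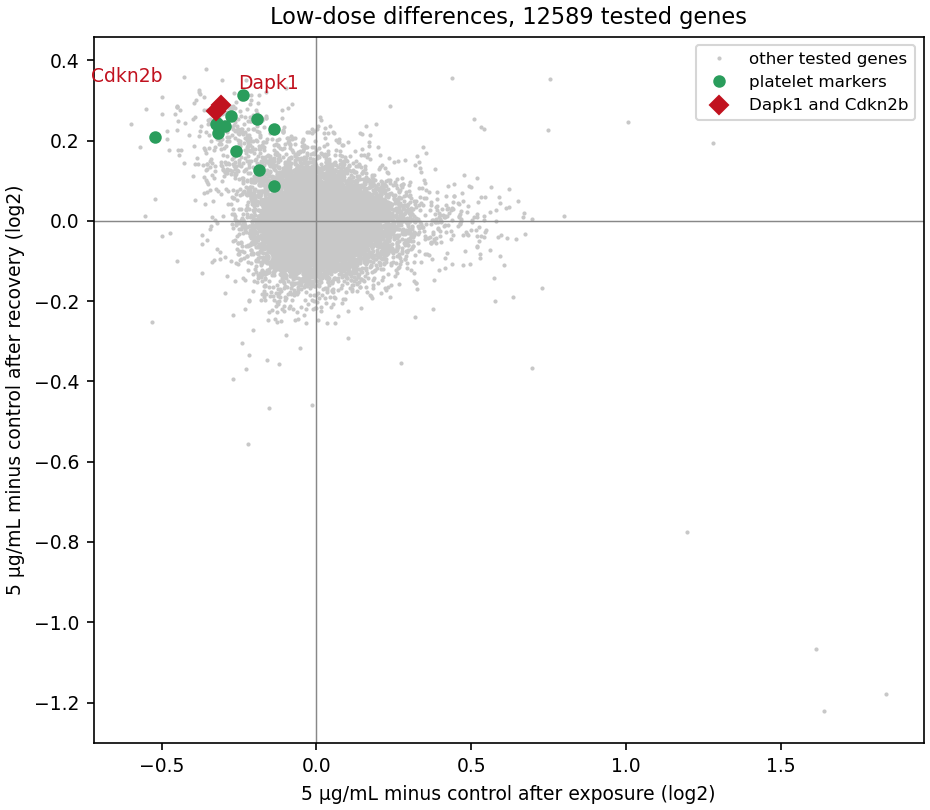
Difference of low dose minus control after recovery (y axis) against that after exposure (x axis), log2, for 12589 tested genes (grey), the 12 platelet markers (green) and Dapk1 and Cdkn2b (red). Dapk1 (-0.31, 0.29) and Cdkn2b (-0.32, 0.27) lie in the upper left with all 12 platelet markers.

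Within groups, Dapk1 also varied with the platelet markers. Over the 28 high-dose arrays, group means subtracted, Dapk1 correlated with the platelet mean at r = 0.73 and rho = 0.64 (permutation, two-sided, adjusted p = 0.00044 and 0.00836 over 22 relations, which set both genes against 11 cell marker lists). Without the 2 arrays farthest in the platelet mean r was 0.66, and it was 0.63 in the recovery and 0.83 in the exposure arrays. Cdkn2b had r = 0.37 and rho = 0.45 with the platelet mean in these arrays and did not pass (permutation, adjusted p = 0.301 and 0.118), with 0.12 in the recovery and 0.56 in the exposure arrays. Cdkn2b correlated negatively with T cell markers in r (-0.56, permutation, adjusted p = 0.0263), while rho was -0.47 (adjusted p = 0.111). Its r with T cell markers was -0.53 in the recovery and -0.59 in the exposure arrays, and -0.49 without the 2 farthest arrays. With B cell markers Cdkn2b had r = -0.52 (permutation, adjusted p = 0.0623). As a description over all 72 arrays, r with the platelet mean was 0.65 for Dapk1, between 0.55 and 0.83 within single groups, and 0.38 for Cdkn2b, between 0.12 and 0.88. With the T cell mean r was -0.04 for Dapk1 and -0.47 for Cdkn2b, and with the B cell mean -0.32 and -0.31.

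**Figure D4:**
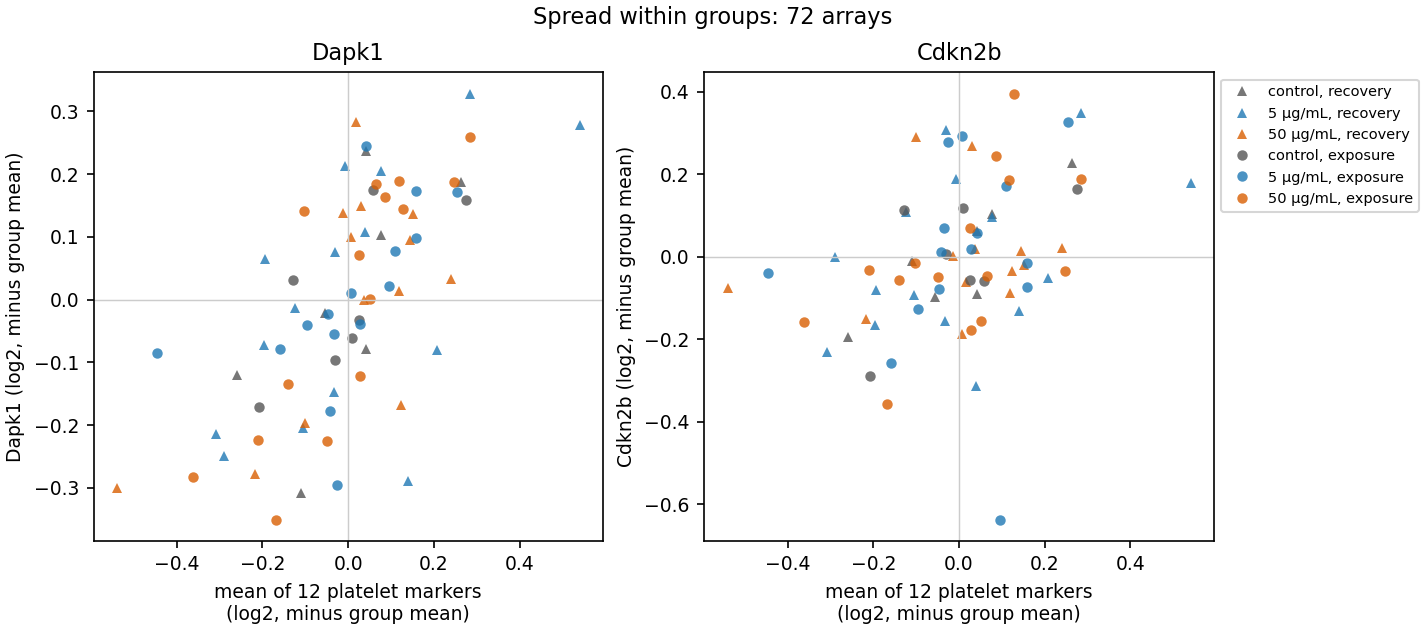
Dapk1 and Cdkn2b level (y axis, log2, minus the group mean) against the mean of 12 platelet markers (x axis, log2, minus the group mean) on 72 arrays; triangles are recovery, circles exposure, colours the dose. Pearson's r is 0.65 for Dapk1 and 0.38 for Cdkn2b.

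With the platelet mean as a covariate, chosen after the data were seen, the low-dose differences were smaller and kept their signs. For Dapk1 the low-dose difference was 0.15 ± 0.07 after recovery and -0.14 ± 0.07 after exposure, and the change between them 0.29 ± 0.10, against 0.60 without the covariate. For Cdkn2b it was 0.19 ± 0.08 after recovery and -0.22 ± 0.09 after exposure, and the change 0.41 ± 0.13. The high-dose difference after recovery was 0.09 ± 0.07 for Dapk1 and 0.24 ± 0.09 for Cdkn2b. In controls, recovery minus exposure was -0.46 ± 0.08 for Dapk1 and -0.44 ± 0.10 for Cdkn2b, and with the means of 6 marker lists as covariates -0.35 ± 0.11 and -0.38 ± 0.13, against -0.65 and -0.55 without a covariate. Whether the marker mean and the genes share a source was not tested.

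Markers of 2 other cell types moved against the genes at the low dose after exposure, and lay close to controls after recovery. After exposure all 13 tested B cell markers lay above controls with a median of 0.46, of which 4 passed the test (2 after median centring and 6 after quantile normalization). All 12 monocyte markers also lay above, with a median of 0.39, of which 6 passed. Of all tested genes 1.11% passed as higher in this comparison. The B cell marker mean had an SD of 0.68 in the exposure controls and 0.23 in the low-dose exposure arrays. T cell markers lay on the side of the genes, with 1 of 11 above controls, a median of -0.09 and 0 past the test. After quantile normalization 2 of them passed as lower, as did 82 of all tested genes. After recovery 7 of 13 B cell and 8 of 12 monocyte markers lay above controls, with medians of 0.01 and 0.02 and 0 past the test. With the means of 6 marker lists (B cells, T cells, monocytes, neutrophils, platelets and erythroid cells) as covariates, the change of the low-dose difference between collections was 0.28 ± 0.11 for Dapk1 and 0.44 ± 0.12 for Cdkn2b.

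Genes most like each of the 2 were named by Pearson's r over the 72 arrays, as a description. After subtraction of group means the 5 closest to Dapk1 were Ywhah (0.80), which encodes 14-3-3 eta, Esam (0.76) and Pecam1 (0.74), adhesion molecules of endothelium and platelets, Mapk6 (0.75), an atypical MAP kinase, and Gucy1b1 (0.72), a subunit of soluble guanylyl cyclase. On the values as deposited they were Ywhah (0.89), Mapk6 (0.87), Gucy1b1 (0.85), Smim3 (0.84) and Mid1ip1 (0.84). The r on deposited values include the differences between group means, and all of them share the same arrays. For Cdkn2b the closest after subtraction were Stc2 (0.55), a secreted glycoprotein, the histone gene H3c4 (0.53), Ptprn (0.52), the tubulin Tubb2a (0.51) and the semaphorin receptor Plxna2 (0.51). As deposited they were Slc6a4 (0.72), the serotonin transporter, Trim37 (0.71), Dennd2c (0.70), Gata1 (0.70), a transcription factor of red cells and megakaryocytes, and Triqk (0.69).

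Neither gene was the closest to the other. Cdkn2b ranked 533rd among all tested genes by r with Dapk1 after subtraction and 234th as deposited. Dapk1 ranked 180th by r with Cdkn2b after subtraction and 32nd as deposited.

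The kinases nearest to Dapk1 did not follow its low-dose pattern past the test. Dapk2, a paralog, had a low-dose difference from controls of -0.08 ± 0.17 after recovery and 0.08 ± 0.17 after exposure. Dapk3, another family kinase, had -0.04 ± 0.11 and 0.04 ± 0.11, and Stk17b, a kinase of lymphocytes with a related catalytic domain, -0.04 ± 0.07 and 0.03 ± 0.07. None of the 3 passed in either comparison or in the change between them. Between the high-dose collections they moved in different directions: Dapk3 rose by 0.47 ± 0.09 (limma, adjusted p = 1.58e-05), while Dapk2 fell by 0.61 ± 0.14 (adjusted p = 0.00025) and Stk17b fell by 0.21 ± 0.06 (adjusted p = 0.00317).

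Among the relatives of Cdkn2b, Cdkn2a, which shares its locus and encodes p16INK4a and Arf, was not above the median of all values on any array and was not tested. The INK4 genes Cdkn2c and Cdkn2d, the broader inhibitors Cdkn1a and Cdkn1b, and the targets Cdk4 and Cdk6 were tested, and none passed in a low-dose comparison. Their low-dose differences lay between -0.24 (Cdkn1a) and 0.05 after recovery and between -0.12 (Cdkn2d) and 0.01 after exposure. Between the high-dose collections all 4 inhibitors were lower after recovery, Cdkn2c by -0.52 ± 0.11 (limma, adjusted p = 3.07e-05), Cdkn1b by -0.31 ± 0.08 (0.000799), Cdkn1a by -0.20 ± 0.07 (0.0103) and Cdkn2d by -0.16 ± 0.06 (0.022). Of all tested genes 19.8% passed as lower and 29.4% as higher between these collections. The kinases Cdk4 and Cdk6 rose, by 0.32 ± 0.08 (limma, adjusted p = 0.000622) and 0.26 ± 0.05 (6.23e-05). Cdk2, another listed cyclin kinase, went the other way, with -0.21 after quantile normalization (limma, adjusted p = 0.00495) and -0.17 after median centring (0.0635). Cdkn2d lost its call when arrays were centred on their medians (-0.14, adjusted p = 0.0933).

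Of the wider pathways, few genes differed at the low dose. After exposure 1.3% of all tested genes passed, 140 higher (1.11%) and 24 lower, or 232 and 82 after quantile normalization. Among 20 tested inducers and regulators of Dapk1 2 rose: Cebpb by 0.47 ± 0.11 (limma, adjusted p = 0.0163) and Atf6 by 0.34 ± 0.08 (0.0125). Both encode transcription factors that cooperate in the induction of Dapk1 by interferon-gamma, and Dapk1 itself lay below controls in the same arrays. The median of that list was 0.08, against 0.00 over all genes. None passed of 31 DAPK family members, partners and substrates, 23 cyclin kinase inhibitors and targets, 37 TGF-beta and Cdkn2b regulators, 27 autophagy genes, 26 apoptosis genes and 2 neighbours of Cdkn2b. After quantile normalization 2 of the TGF-beta and Cdkn2b regulators passed as lower, Myc, a transcription factor that represses Cdkn2b (-0.28, adjusted p = 0.0151), and Runx1 (-0.29, 0.0438). After recovery 0% of all tested genes passed in limma, 295 had an unadjusted p under 0.05, and no listed gene passed. In the change between collections no listed gene passed. The smallest adjusted p among them were 0.0981 for the autophagy gene Gabarapl1 (0.48), 0.12 for Runx1 (0.40), a regulator of megakaryocyte and blood stem cell genes, and 0.127 for Birc2 (0.55) and Cebpb (-0.51).

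Between the high-dose collections, 3695 of all tested genes (29.4%) rose and 2494 (19.8%) fell, or 3209 and 3477 after quantile normalization. Each list moved in both directions except the 2 neighbours of Cdkn2b. Of 31 DAPK family genes and partners 13 rose and 5 fell, with a median of 0.10. Prkd3, a protein kinase D, rose by 0.50 ± 0.07, the mTOR inhibitor Tsc2 by 0.51 ± 0.07 and the tRNA synthetase Eprs by 0.50 ± 0.07, while the chaperone Hsp90aa1 fell by 0.56 ± 0.06. Of 20 inducers and regulators of Dapk1 9 rose and 4 fell, with a median of 0.07. The NF-kappaB genes Rela (0.50 ± 0.07) and Relb (0.57 ± 0.08) and the corepressor Daxx (0.29 ± 0.05) rose, and Cebpb fell by 0.58 ± 0.09.

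Of the 23 cyclin kinase inhibitors and targets 3 rose and 12 fell, where 29.4% of all tested genes rose and 19.8% fell. Their median was -0.16 against 0.00 over all genes, and Tfdp1, the partner of E2F factors, fell by 0.44 ± 0.07. Of 37 TGF-beta genes and Cdkn2b regulators 13 rose and 11 fell, a balance that turned to 11 and 17 after quantile normalization. Tgfb1, the ligand itself, rose by 0.66 ± 0.08, Foxo1 by 0.62 ± 0.08, the histone methyltransferase Ezh1 by 0.54 ± 0.07 and Irf8 by 0.64 ± 0.10. Foxo1 and Irf8 encode transcription factors. Cdkn2b was lower in the same arrays by -0.16 and missed the threshold. Mtap, which lies in the neighbourhood of Cdkn2b on chromosome 4, rose by 0.28 ± 0.06, and Elavl2 had -0.14 (adjusted p = 0.107).

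Of 27 autophagy genes 6 rose and 9 fell, where 29.4% of all tested genes rose and 19.8% fell. Tfeb, a master regulator of autophagy and lysosome genes, rose by 0.31 ± 0.05, Wipi2 by 0.41 ± 0.07 and Map1lc3a by 0.22 ± 0.04, and Atg12 fell by 0.46 ± 0.10. Of 26 apoptosis genes 8 rose and 10 fell, against the same shares of all tested genes (29.4% and 19.8%). Casp1, the inflammatory caspase, rose by 0.48 ± 0.08 and Mcl1, a survival factor, by 0.33 ± 0.07, while the effector caspase gene Casp6 fell by 0.42 ± 0.07 and the caspase inhibitor Xiap by 0.53 ± 0.09. The listed genes named here all had adjusted p (limma) under 0.05 with the same sign after quantile normalization and after median centring, apart from Cdkn2d, Cdk2, Cdkn2b and Elavl2.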

How the data were processed

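Total RNA from whole blood was depleted of globin transcripts, amplified and biotin-labelled before hybridisation, per the labels' protocols. The authors deposited 1 table of log2 values for 45101 probe sets on 72 arrays, normalized by RMA per the submitters' processing notes; its version and variant are unknown here. Probe sets with exactly 1 gene symbol in the platform annotation were used. A gene was tested if its brightest probe set exceeded the median of all values, 4.14, in at least 7 arrays. Group means were fitted with limma 3.58.1 (R 4.3.3) with 66 residual degrees of freedom, and p-values were adjusted by Benjamini-Hochberg within each comparison at 0.05. The script was tested on simulated data. The number of arrays limits the precision. Dapk1, Cdkn2b, the gene lists and the named genes were chosen with earlier results of these data known. List genes named are the 4 with the smallest p, close relatives, and all past the threshold where 5 or fewer passed; likeness names the top 5, without gene models. Slc12a2, Gp6, Treml1, Thbs1, Cdk2 and the genes that passed only after quantile normalization were named after their values were seen. Whether title numbers pair the samples is not known. Same-numbered arrays of the 2 collections had a median correlation of deviations of 0.07 at the low dose and -0.001 at the high dose. For other numbers it was 0.009 and 0.0006. The best match was the own number for 3 of 15 low-dose and 0 of 13 high-dose arrays. These values cannot settle it, as no pair is known to be 1 mouse. Gene positions and promoter windows are from RefSeq, GRCm38.p6.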

Additional observations from a re-analysis of the deposited data

Results flagged for a closer look

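The low-dose difference after recovery minus that after exposure was 0.595 for Dapk1 and 0.599 for Cdkn2b, a difference between the collections in the same contrast. Both genes were chosen on it, so no test is given for it here. For Cdkn2b, exposure control replicate 4 had the lowest level of its group, 4.51, while the other 6 lay between 4.74 and 4.96. Dixon's rule for outliers did not flag this array.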

How the results depend on the processing

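The number of arrays limits the precision, and controls have 7 per collection. The alternatives were quantile normalization, median centring, no filter, array weights, only the groups compared, covariates for 6 cell markers or for 3′ to 5′ differences, the other Dapk1 probe set, leaving out single arrays, a permutation test and, chosen after the data were seen, the platelet marker mean as a covariate and, for the correlation, high-dose arrays alone. The low-dose differences of Dapk1 and Cdkn2b from controls, and their change between collections, kept their signs in those run for them, which leave out the permutation test and, for Cdkn2b, the other probe set. With cell marker covariates Dapk1 had -0.12 for the low dose after exposure, 0.28 for the change and 0.068 for the high dose after recovery; with the platelet covariate the last 2 were 0.29 and 0.094. The high-dose Cdkn2b difference after exposure, -0.02, was -0.14 with cell marker covariates, 0.01 with 3′ to 5′ covariates and between -0.07 and 0.01 without single arrays; that of Dapk1, -0.08, was -0.14 with cell marker covariates and 0.01 with the other probe set. Between the high-dose collections Dapk1 lost its call with cell marker covariates (-0.14) and with the other probe set (-0.12), and it kept it without each single array (-0.27 to -0.22). Cdkn2b passed after quantile normalization (-0.17, adjusted p = 0.0364), with only the groups compared (-0.16, 0.0418) and with the platelet covariate (-0.17, 0.0271); the permutation p of 0.0188 (-0.16) is unadjusted, as is the 0.0274 of limma, and adds no call; without single arrays it lay between -0.19 and -0.13. The correlation of the 2 genes was 0.16 with cell marker covariates and 0.21 with the platelet covariate, against 0.39 without, and 0.47 over high-dose arrays alone. Genes called for the low dose after exposure, 164 in the main setting, were 1406 with array weights, 314 after quantile normalization, 95 after median centring, 55 with the platelet covariate and 2 with cell marker covariates. Genes called for the change between collections, 3 in the main setting, were 716 with array weights, 78 after quantile normalization, 19 with 3′ to 5′ covariates and 0 with either marker covariate (limma; 1064 had an unadjusted p under 0.05 in the main setting). Genes called between the high-dose collections were 6189, and 3978 with cell marker covariates. The cause of these shifts was not tested. With the title number as a replicate block, 6114 genes were called between the high-dose collections. Dapk1 was then -0.22 (limma, adjusted p = 0.00386) and Cdkn2b -0.15 (adjusted p = 0.0531). Title numbers are not known to mark a mouse.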
